A study of Chlorocebus sabaeus with 6 samples.

Results

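The genes described here are the transcriptional output end of the Hippo pathway: the co-activator genes YAP1 and WWTR1 (which encodes TAZ), the DNA-binding factor genes TEAD1, TEAD2, TEAD3 and TEAD4, and the 4 direct targets CCN1, CCN2, ANKRD1 and AMOTL2. They were taken by gene symbol, 10 of the 18050 genes in the deposited table, and the rule itself uses no measured value, though the set was proposed with earlier results of these data known. RNA was measured in COS7, a fibroblast-like line from African green monkey (Chlorocebus sabaeus) kidney that carries SV40 large T antigen. One group was wild-type COS7 (WT, 3 samples) and the other was COS7 lacking ATL2 and ATL3 (DKO, 3 samples), both grown untreated in the same serum-supplemented DMEM. ATL2 and ATL3 encode atlastins, membrane-fusing GTPases that join tubules of the endoplasmic reticulum to each other. The labels do not give the number of knockout clones, how the knockout was made, or whether the 3 samples of a group were separate cultures, so the p-values measure the spread between these samples only, which may be technical, and a difference between the clone or clones and the parental line cannot be told apart from the loss of ATL2 and ATL3.

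YAP and TAZ are co-activators with no DNA-binding domain of their own. They enter the nucleus when the kinases LATS1 and LATS2 do not phosphorylate them, and there they bind TEAD proteins and switch on genes of growth, matrix and the cytoskeleton. YAP and TAZ are regulated mainly by phosphorylation, location and turnover of the protein, so a transcript level is not a measure of their activity. Adherent fibroblast-like cells on stiff plastic are a common setting for this pathway, and CCN1, CCN2 and ANKRD1 are its usual transcript readouts.

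The libraries held 14197344 to 15693049 estimated counts. ATL2 transcript was at 30.5, 29.2 and 32.2 FPKM in WT1 to WT3 and at 7.38, 6.65 and 3.78 in DKO1 to DKO3 (FPKM: fragments per kilobase of transcript, scaled to library size), and ATL3 at 37.3, 34.7 and 35.4 against 5.22, 5.93 and 3.5, so both targeted transcripts were lower in every DKO library (log2 fold changes -2.21 and -2.83, edgeR adjusted p = 0.00029 and 3.7e-05, and -1.99 and -2.68 without DKO3). DKO3 stood apart from DKO1 and DKO2: the first principal component, with 88.2% of the variance, separated WT from DKO, and the second, with 9.4%, separated DKO3 from the other two. Relative to DKO1 and DKO2, genes of 0.149 to 1.63 kb implied transcript length had a median log2 difference of 0.30 in DKO3 and those of 3.95 to 26.8 kb one of -0.17. For this reason the log2 fold changes of the 10 genes and the counts of the gene lists are given with and without DKO3, as are the log2 fold changes of most other genes that were called. Of the marker lists, the summed level of 9 fibroblast markers was 3360 to 3450 FPKM in WT and 1530 to 1580 in DKO, with COL1A2 and COL3A1 below 1 FPKM in all samples and THY1 listed at 0. Most of that difference was FN1 (1840 against 207 FPKM), and of the 6 fibroblast markers tested 2 were higher, PDGFRA (6.10) and PDGFRB (3.23), and 3 lower. The sum of 8 kidney epithelium markers was 740 to 834 in WT and 558 to 723 in DKO with PAX2 below 1. Most of it was KRT8 and KRT18, and of the 7 tested EPCAM (1.34) and KRT19 (2.31) were higher and 4 lower, among them CDH1 (-5.69) and PAX8 (-1.37). The sum of 5 measured endothelium markers was 0.18 to 0.28 in WT and 15.1 to 15.7 in DKO, nearly all of it TEK, with PECAM1, KDR, VWF and ERG below 1 throughout. The 2 endothelium markers tested, TEK (8.18) and VWF (2.49), were both higher. Of the leukocyte markers, PTPRC and CD3E were below 1 FPKM in all samples, and CD68 was at 14 to 15.8 FPKM in WT and 13.3 to 14.8 in DKO (not called). The part of these shifts in the results below was not tested, and in bulk RNA fewer cells of a type and less RNA per cell cannot be told apart.

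All 10 genes were expressed, with at least 445 estimated counts in every library, and all 10 passed the filter on low counts. YAP1, CCN2, ANKRD1 and TEAD4 were higher in DKO and WWTR1 was lower, so 5 of 10 were called by edgeR's quasi-likelihood test at a Benjamini-Hochberg adjusted p below 0.05. Across all 13094 genes tested, 45.5% were called (23.3% higher and 22.2% lower), so the count of 5 of 10 is close to the background of a comparison in which much of the transcriptome differed. The sizes of the changes were unequal: 1.11% of all tested genes had a larger log2 fold change than ANKRD1, 1.41% a larger one than YAP1, 3.96% than CCN2 and 17.1% than TEAD4, and 12% had a larger decrease than WWTR1. Without DKO3, 10 of 10 were called (6 higher and 4 lower) against 74.6% of all tested genes (36% higher and 38.6% lower). The FPKM ranges of the groups did not overlap for 6 of the 10 (YAP1, WWTR1, TEAD4, CCN1, CCN2 and ANKRD1), against 63.2% of all tested genes.

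**Figure D1:**
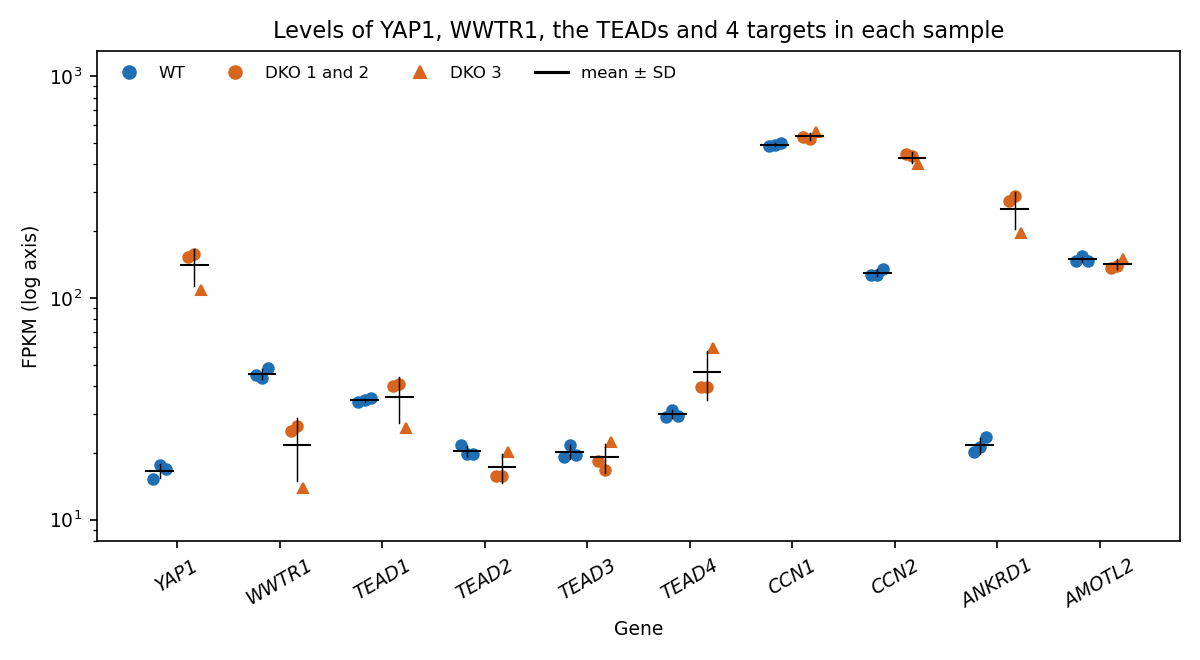
FPKM of the 10 genes in each sample on a log axis, with WT in blue, DKO1 and DKO2 as orange circles, DKO3 as an orange triangle, and the mean ± SD of each group in black. YAP1 moves from 16.6 to 140 FPKM and ANKRD1 from 21.6 to 252. CCN1, AMOTL2, TEAD1, TEAD2 and TEAD3 move less and were called only without DKO3. TEAD1 is at 40.2 and 40.7 FPKM in DKO1 and DKO2 and at 26 in DKO3.

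YAP1, which encodes the co-activator YAP, was the lower of the 2 co-activator transcripts in WT and by far the higher in DKO. YAP1 was at 15.3, 17.6 and 17 FPKM in WT1 to WT3 and at 153, 157 and 109 FPKM in DKO1 to DKO3. Every DKO library lay several-fold above every WT library, and DKO3 was the lowest of the DKO libraries. The mean rose from 16.6 ± 1.2 FPKM (SD, n = 3) to 140 ± 26.7 (SD, n = 3), a ratio of 8.4 (log2 fold change 3.10, SE 0.15, edgeR adjusted p = 1.2e-05, and 3.22 without DKO3). Among genes with a nonzero mean FPKM in the group, YAP1 lay at the 70.2th percentile of levels in WT and at the 95.8th in DKO.

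WWTR1, which encodes the paralog TAZ, moved the opposite way. Its level was 44.8, 43.5 and 48.1 FPKM in WT and 25, 26.4 and 13.9 FPKM in DKO, so that all DKO libraries were below all WT libraries and DKO3 was again the lowest. The mean fell from 45.5 ± 2.39 (SD, n = 3) to 21.8 ± 6.84 FPKM (SD, n = 3), a log2 change of -1.03 (SE 0.21, edgeR adjusted p = 0.0071) that was -0.82 without DKO3. WWTR1 transcripts therefore outnumbered YAP1 transcripts in WT and YAP1 transcripts outnumbered WWTR1 in DKO. The ratio of YAP1 to WWTR1 in FPKM, a scale that allows for length, was 0.341, 0.406 and 0.353 in WT and 6.13, 5.94 and 7.83 in DKO (exact two-sided permutation test, p = 0.1, the smallest that 3 against 3 samples allow), and on the log2 scale the group difference of this ratio was 4.17, or 4.05 without DKO3. YAP1 made up 26.8% ± 1.82 (SD, n = 3) of the YAP1 and WWTR1 sum in WT, and 86.7% ± 1.68 (SD, n = 3) of it in DKO. The summed level of both was 60.1, 61.1 and 65.1 FPKM in WT and 178, 183 and 123 in DKO, also without overlap (exact permutation p = 0.1), so the loss of WWTR1 transcript was smaller in FPKM than the gain of YAP1 transcript.

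**Figure D2:**
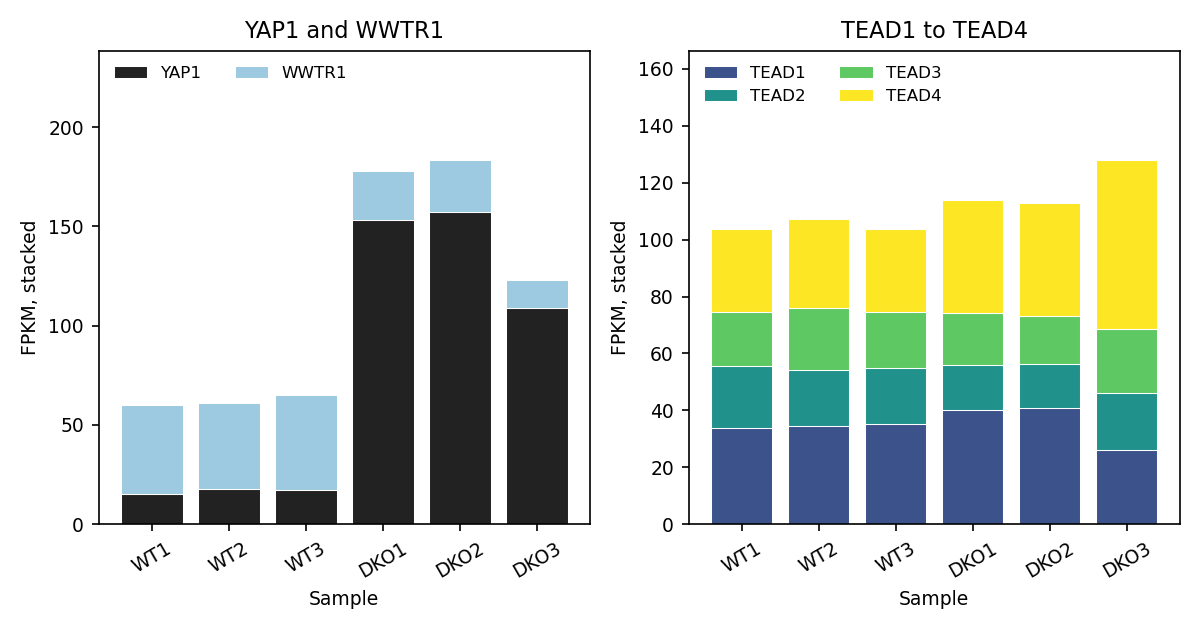
Stacked FPKM per sample of YAP1 and WWTR1 (left) and of TEAD1 to TEAD4 (right). The left bars grow from between 60.1 and 65.1 to between 123 and 183 FPKM as YAP1 replaces WWTR1 as the larger share, and the right bars stay between 104 and 128 FPKM.

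The genes next to YAP1 in the RefSeq gene order of the African green monkey were examined, a set chosen after the YAP1 values were seen. Of the 20 genes on each side, 26 were tested, and of these 19 were higher in DKO, 0 lower and 7 not called, with a median log2 fold change of 1.97 (21 higher and 0 lower without DKO3). Over all tested genes the median was -0.01, with 23.3% called higher and 22.2% lower (36% and 38.6% without DKO3). BIRC2, 2 genes away and encoding the apoptosis inhibitor cIAP1, was at 14.6, 13.4 and 17.1 FPKM in WT and at 132, 133 and 48.3 in DKO (2.82, SE 0.36, edgeR adjusted p = 0.00086). DCUN1D5, 12 genes away and encoding a cullin neddylation factor, was at 34, 35.5 and 40.1 against 634, 649 and 399 FPKM (3.98, SE 0.18, edgeR adjusted p = 9.9e-06). The inflammatory caspase gene CASP4, 16 genes away, was at 4.07, 4.18 and 5.71 against 172, 164 and 151 FPKM (5.17, SE 0.17, edgeR adjusted p = 4.4e-06). In all 3, as in YAP1, every DKO library was above every WT library and DKO3 was the lowest of the DKO libraries. On the other side, the progesterone receptor gene PGR had a log2 fold change of 6.90 (SE 0.48), and the more distant ENDOD1 one of 2.99 (SE 0.13), with TMEM123 at 2.99 (SE 0.17) and the dynein gene DYNC2H1 at 3.19 (SE 0.25) beyond BIRC2. Without DKO3 the log2 fold changes were 3.14 for BIRC2, 4.13 for DCUN1D5, 5.17 for CASP4, 7.21 for PGR, 3.03 for ENDOD1, 3.14 for TMEM123 and 3.42 for DYNC2H1, all called higher.

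The rise did not cover each gene of the stretch. BIRC3, the next gene of the table after YAP1 in that order, which encodes cIAP2, was at 0.8, 0.81 and 1.28 FPKM in WT and at 1.06, 0.82 and 0.35 in DKO (-0.36, SE 0.38, not called), and the matrix metalloproteinase genes MMP7, MMP3 and MMP13, all below 1 FPKM, were not called either. MMP10, of the same family and stretch, was called higher, at 0.37, 0.6 and 0.3 FPKM in WT and 2.15, 1.81 and 1.65 in DKO (2.18, SE 0.26, and 2.23 without DKO3). FAM76B (1.37, SE 0.48) and CCDC82 (1.29, SE 0.47) were not called, with DKO1 and DKO2 above the WT range and DKO3 below it, and both were called higher without DKO3 (1.79 and 1.70). FAM76B was also called with DESeq2 and with upper quartile scaling, and CCDC82 with DESeq2. In simulated data 26.2% of DESeq2 calls were false, against 4.9% of edgeR calls. Far fewer genes were changed there than were called here, so these are not the false shares of the real comparison. TRPC6 had 3 counts over the WT libraries together and a DKO to WT ratio of 13.9 (95% counting interval 4.45 to 70.4). LOC103248368, with 0 WT counts, was at least 69.2-fold higher in DKO against a floor of 3 counts per library. Of the neighbours not tested, PDGFD, 14 genes away, went the other way, with a WT to DKO ratio of 10.8 (interval 3.38 to 55). CFAP300, next to YAP1 on the other side from BIRC3, was at least 1.09-fold lower by the same floor, with WT2 also at 0. LOC103248269, CASP1 and CARD16, also not tested, were at least 2.49-, 3.06- and 1.7-fold higher. For MMP12 the DKO to WT ratio was 5.1 (interval 0.571 to 241).

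The same count around the other 9 genes gave both directions or few calls, against 23.3% higher and 22.2% lower over all tested genes. Some of these counts were uneven, with more higher than lower around CCN2 and more lower than higher around AMOTL2. CCN2 had 31 tested neighbours, 13 higher and 6 lower (median 0.57), and those of WWTR1 (28 tested) were 6 higher and 9 lower (median -0.29). For ANKRD1, 4 of 31 tested neighbours were higher and 6 lower (median -0.38). Among the TEAD genes, TEAD4 had 9 of 32 higher and 7 lower, TEAD2 8 of 33 and 5, TEAD1 5 of 33 and 2, and TEAD3 2 of 23 and 5. CCN1 had 0 of 24 higher and 3 lower, and AMOTL2 4 of 30 higher and 11 lower. Without DKO3 the counts of higher and lower neighbours were 21 and 7 for CCN2, 12 and 13 for WWTR1, 8 and 14 for ANKRD1, 11 and 12 for TEAD4, 14 and 15 for TEAD2, 13 and 7 for TEAD1, 4 and 11 for TEAD3, 5 and 12 for CCN1, and 4 and 15 for AMOTL2. Neighbouring genes are not independent replicates, and no test was made of these counts.

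**Figure D3:**
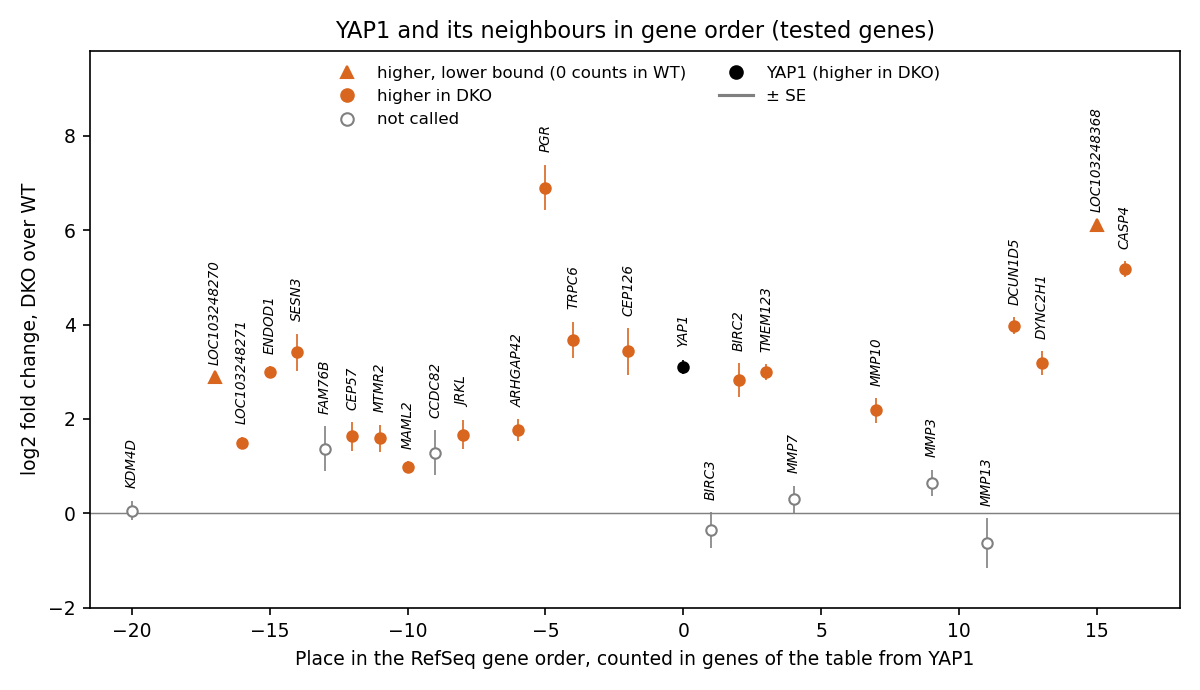
Log2 fold change (DKO over WT, ± SE) of YAP1 and its tested neighbours, by place in the RefSeq gene order counted from YAP1. Filled orange points are called higher, open points are not called, and triangles are lower bounds for genes with 0 counts in WT; 19 of the 26 neighbours are higher and 0 are lower, while BIRC3, MMP7, MMP3 and MMP13 are among the 7 that are not called.

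All 4 TEAD genes, which encode the factors that bring YAP and TAZ to DNA, were expressed in both groups. In WT the order of the mean FPKM levels was TEAD1 at 34.5 ± 0.629, TEAD4 at 29.9 ± 1.24, TEAD2 at 20.4 ± 1.07 and TEAD3 at 20.2 ± 1.41 (SD, n = 3 each), and the last pair did not differ beyond their spread. In DKO the order was TEAD4 at 46.2 ± 11.5, TEAD1 at 35.6 ± 8.33, TEAD3 at 19.1 ± 2.84 and TEAD2 at 17.2 ± 2.54 (SD, n = 3 each), where neither the upper pair nor the lower pair differed beyond their spread. TEAD1 and TEAD4 were nearly equal in DKO1 (40.2 and 39.5 FPKM) and DKO2 (40.7 and 39.6), and apart in DKO3 (26 and 59.5).

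TEAD4 was the one TEAD gene called. It was at 29.1, 31.3 and 29.3 FPKM in WT and at 39.5, 39.6 and 59.5 FPKM in DKO. The groups did not overlap, and DKO3 was well above the other DKO libraries. The difference was 0.68 on the log2 scale (SE 0.21, edgeR adjusted p = 0.034), and 0.40 without DKO3, when TEAD4 was also called. The call was lost when any 1 WT library was left out, with log2 fold changes of 0.66, 0.70 and 0.66 and edgeR adjusted p = 0.11, 0.088 and 0.11 without WT1, WT2 and WT3. Over all alternatives the adjusted p ranged from 2.5e-07 to 0.11.

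TEAD1 was at 33.9, 34.5 and 35.2 FPKM in WT and at 40.2, 40.7 and 26 in DKO, above WT in 2 DKO libraries and below it in DKO3. The log2 difference between the groups was 0.07 (SE 0.16, edgeR adjusted p = 0.73), with a 95% limma-voom interval of -0.34 to 0.44, and 0.23 without DKO3, when it was called higher. TEAD2 was at 21.6, 19.7 and 19.8 FPKM in WT and at 15.8, 15.7 and 20.2 in DKO, with DKO3 inside the WT range. Its log2 difference was -0.19 (SE 0.16, edgeR adjusted p = 0.36, interval -0.58 to 0.16), and -0.37 without DKO3, when it was called lower. TEAD3 was at 19.2, 21.8 and 19.5 FPKM in WT and at 18.3, 16.8 and 22.3 in DKO, again with the DKO libraries on both sides of WT. For TEAD3 the log2 difference was -0.01 (SE 0.16, edgeR adjusted p = 0.95, interval -0.42 to 0.36), and -0.20 without DKO3, when it was called lower. The intervals of TEAD1, TEAD2 and TEAD3 leave room for changes of the size seen without DKO3, so a missed threshold does not show that their levels were equal. Counts were also simulated with 1 fitted spread per gene for all libraries, so without the separate place of DKO3. There 100 of 13094 genes were changed 1.5-fold, 50 were changed 2-fold and 50 were changed 4-fold. The test recovered 6%, 46% and 98% of these. Far more genes were called in the real comparison (45.5%), and the Benjamini-Hochberg cutoff depends on how many genes change. The simulated shares therefore do not give the recovery in the real comparison.

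The makeup of the TEAD transcripts differed between the groups without overlap for TEAD2, TEAD3 and TEAD4, though the exact permutation test of 3 against 3 samples cannot go below 0.1. Their summed level was 104, 107 and 104 FPKM in WT and 114, 113 and 128 in DKO, a log2 difference of 0.17 (exact permutation p = 0.1) that was 0.08 after rescaling each library's FPKM to one total. TEAD4 made up 28%, 29.2% and 28.3% of the sum in WT and 34.7%, 35.1% and 46.5% in DKO, and TEAD2 made up 20.8%, 18.4% and 19.1% against 13.9%, 13.9% and 15.8%. TEAD3 also took a smaller share in every DKO library (14.9% to 17.4%, against 18.5% to 20.3% in WT), each of these 3 differences with an exact permutation p = 0.1. The TEAD1 share was 32.7%, 32.1% and 33.9% in WT and 35.3%, 36.1% and 20.3% in DKO (exact permutation p = 1). Relative to the TEAD sum, the YAP1 and WWTR1 sum was 0.592 ± 0.0308 (SD, n = 3) in WT, and it was 1.38 ± 0.368 (SD, n = 3) in DKO. Adjusted over the 9 ratios, sums and shares tested, the exact permutation p of 0.1 became 0.113. With counts scaled to library size (CPM), which do not allow for length, in place of FPKM, the TEAD4 share was higher by 5.10 percentage points in place of 10.3, and the TEAD2 and TEAD3 shares changed by -1.65 and -0.96 points in place of -4.89 and -3.06.

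The divergence of DKO3 in these genes went with implied transcript length. Against the mean of DKO1 and DKO2, DKO3 had log2 differences of 0.71 for TEAD4 (1.59 kb), 0.47 for TEAD2 (2.01 kb) and 0.48 for TEAD3 (2.78 kb), and of -0.42 for YAP1 (4.45 kb), -0.80 for WWTR1 (4.95 kb) and -0.56 for TEAD1 (9.21 kb). The Spearman correlation of this difference with length was -0.65 over the 10 genes and -0.26 over all 13094 tested genes, given as a description because genes of 1 library share its preparation. AMOTL2 (4.24 kb, 0.21) and ANKRD1 (1.82 kb, -0.38) went against that order. Its part in the TEAD4 call was not tested, and TEAD4 was 0.40 higher without DKO3.

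The direct targets, which carry TEAD sites and are switched on by YAP and TAZ, fell into a pair that rose and a pair that was not called. ANKRD1 encodes a nuclear and sarcomeric ankyrin repeat protein. It was at 20.1, 21.2 and 23.6 FPKM in WT and at 272, 287 and 197 FPKM in DKO. No value of the groups overlapped, and DKO3 was the lowest of the DKO libraries, as for YAP1. The mean rose from 21.6 ± 1.8 (SD, n = 3) to 252 ± 48.3 FPKM (SD, n = 3), 11.7 times (log2 fold change 3.58, SE 0.15, edgeR adjusted p = 7.6e-06, and 3.69 without DKO3). Among genes with a nonzero mean FPKM in the group, ANKRD1 lay at the 75.2th percentile of levels in WT and at the 97.7th in DKO.

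CCN2 encodes the secreted matricellular protein CTGF. It was at 127, 127 and 135 FPKM in WT and at 447, 438 and 402 FPKM in DKO. The DKO libraries lay close together and far above WT. The mean rose from 130 ± 4.37 (SD, n = 3) to 429 ± 23.7 FPKM (SD, n = 3), or 1.77 on the log2 scale (SE 0.08, edgeR adjusted p = 8.7e-06), and was 1.77 without DKO3 as well.

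CCN1 encodes the related matricellular protein CYR61 and was the most abundant of the 10 transcripts in both groups. It was at 483, 490 and 497 FPKM in WT and at 529, 519 and 557 FPKM in DKO. All DKO libraries were above all WT libraries, by a small margin. The means were 490 ± 7.41 and 535 ± 19.6 FPKM (SD, n = 3 each), the log2 difference was 0.17 (SE 0.09, edgeR adjusted p = 0.15, 95% limma-voom interval -0.03 to 0.38), and it was 0.10 without DKO3, when CCN1 was called higher. AMOTL2 encodes an angiomotin family scaffold that binds YAP and restrains it. It was at 147, 154 and 146 FPKM in WT and at 137, 139 and 150 FPKM in DKO. The groups overlapped through DKO3. The means were 149 ± 4.28 and 142 ± 7.12 FPKM (SD, n = 3 each), with a log2 difference of -0.03 (SE 0.09, edgeR adjusted p = 0.84, interval -0.24 to 0.19) and of -0.10 without DKO3, when AMOTL2 was called lower. The upper interval bounds of CCN1 and AMOTL2 were thus far below the 1.77 of CCN2 and the 3.58 of ANKRD1. In FPKM, the order of the targets in WT was CCN1, AMOTL2, CCN2 and ANKRD1, and in DKO it was CCN1, CCN2, ANKRD1 and AMOTL2, with each neighbouring pair apart by more than its SDs in both groups.

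Among relatives of the target genes, CCN5 (WISP2), a CCN family member without the C-terminal domain, was at 1.97, 1.88 and 1.39 FPKM in WT and at 10.1, 11 and 14.1 in DKO (2.82, SE 0.23, edgeR adjusted p = 0.00012, and 2.61 without DKO3). ANKRD23, an ankyrin repeat relative of ANKRD1, was at 3.3, 2.96 and 2.75 against 3.93, 3.79 and 5.17 FPKM and was not called (0.47, SE 0.21, edgeR adjusted p = 0.11). CCN3, CCN4, CCN6 and ANKRD2 were each below 1 FPKM in every library and were not tested in the fit of all 6 libraries. CCN1, CCN2 and CCN5 were thus the CCN family genes at or above 1 FPKM in every library. Of this list of 6, 1 of 2 tested genes was called. Without WT1, DKO1, DKO2 or DKO3, 3 genes were tested and the count was 2, with 1 higher and 1 lower. In the fit without DKO3 the lower gene was CCN3 (-2.47). It was at 0.2, 0.25 and 0.47 FPKM in WT and at 0.05, 0.05 and 0.07 in DKO.

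The other genes reported as YAP and TAZ targets were called in both directions. Of 18 further genes of a YAP and TAZ target signature, all tested, 6 were higher, 10 lower and 2 not called, with a median log2 fold change of -0.46 (7 higher and 10 lower without DKO3). The share called was 88.9%, against 45.5% of all tested genes, and without DKO3 17 of 18 were called against 74.6%. NUAK2, which encodes a kinase of the AMPK family, was at 32.9, 32.6 and 31.5 FPKM in WT and at 10.2, 10 and 10.9 in DKO (-1.60, SE 0.11, and -1.67 without DKO3). F3, the tissue factor gene that starts coagulation, was at 20.6, 19.7 and 25.9 against 2.51, 3.65 and 1.79 FPKM (-3.02, SE 0.24, and -2.84 without DKO3). Both were lower in all DKO libraries, opposite in sign to CCN2. NT5E, which encodes the ectonucleotidase CD73, was at 0.87, 0.81 and 0.71 FPKM in WT and had 1 count over the DKO libraries, in DKO2, a WT to DKO ratio of 137 (95% counting interval 24.2 to 5460). PTPN14, a phosphatase that holds YAP in the cytoplasm, was lower (-1.04, SE 0.11, and -0.95 without DKO3). LATS2, a target and at once a kinase that inactivates YAP, was higher: 10.3, 9.97 and 10.2 FPKM in WT and 15.6, 17.1 and 12.6 in DKO (0.61, SE 0.12, edgeR adjusted p = 0.0059, and 0.70 without DKO3). GADD45A, a growth arrest gene, was at 65.3 to 73.4 FPKM in WT and 58.7 to 73.8 in DKO and was not called (0.02, SE 0.11), and ASAP1, which encodes an ARF GTPase activator, was not called either (0.34, SE 0.18). ASAP1 was called higher without DKO3 (0.52).

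A second list of reported targets, 15 tested, had 4 higher, 7 lower and 4 not called, with a median of -0.22 (5 higher and 10 lower without DKO3). The share called was 73.3% against 45.5% of all tested genes, and without DKO3 all 15 were called against 74.6%. THBS1, which encodes the matrix protein thrombospondin 1, was at 283, 283 and 290 FPKM in WT and at 53, 56.9 and 63.6 in DKO (-2.26, SE 0.11, edgeR adjusted p = 1.4e-05). TGM2, a transglutaminase gene, was also lower (-2.33, SE 0.17), whereas DLC1 was higher, at 26.7, 28.4 and 23.6 FPKM against 10.5, 9.74 and 11.4 (1.35, SE 0.11). AJUBA, whose LIM protein inhibits LATS kinases, fell by 0.97 on the log2 scale (SE 0.09). Without DKO3 the values were -2.37 for THBS1, -2.52 for TGM2, 1.39 for DLC1 and -0.97 for AJUBA. The apoptosis inhibitor genes BIRC5 (-0.22, SE 0.09) and BCL2L1 (-0.02, SE 0.10) were not called. Both were called lower without DKO3 (-0.18 and -0.11). The 2 lists thus held called genes in both directions, with more lower than higher in each.

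**Figure D4:**
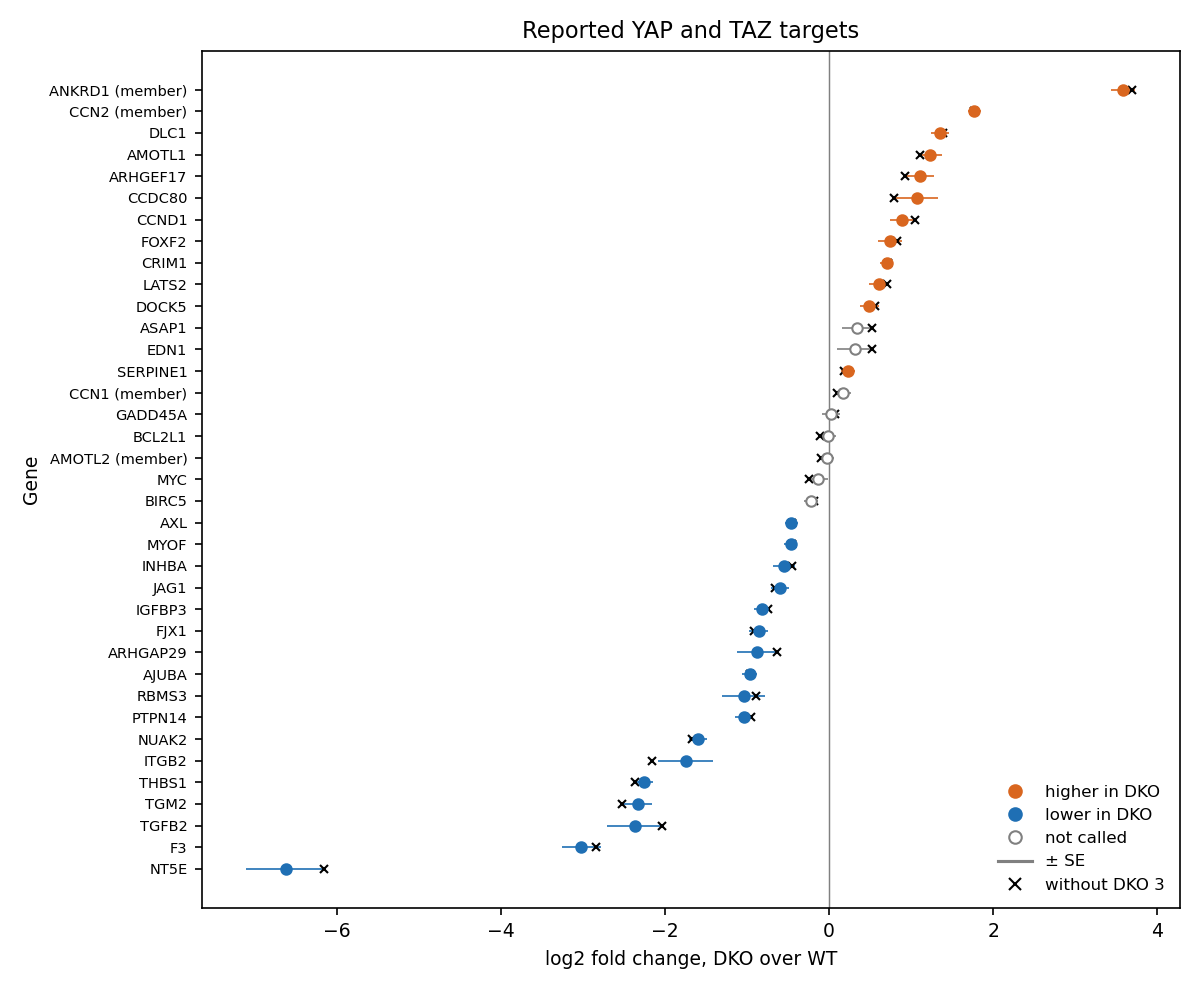
Log2 fold change (DKO over WT, ± SE) of CCN1, CCN2, ANKRD1, AMOTL2 and of the tested genes of the 2 other target lists, with the value without DKO3 as a cross. ANKRD1 and CCN2 lie at the high end, 17 of the other genes are called lower, and the point of NT5E, which had 1 count in DKO, is a fitted value and not a bound.

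Upstream, the kinase cassette that phosphorylates YAP and TAZ showed no common direction. Of 24 tested kinases, adaptors and activators, 6 were higher, 3 lower and 15 not called, with a median of -0.00 (12 higher and 7 lower without DKO3). The share called was 37.5%, below the 45.5% of all tested genes, and without DKO3 19 of 24 were called against 74.6%. STK3 and STK4, which encode the MST kinases, SAV1, their scaffold, and LATS1 were all among the genes not called. Without DKO3, STK3 (0.22) and SAV1 (0.51) were called higher, STK4 (-0.22) was called lower, and LATS1 (-0.04) was not called. WWC3, which encodes a KIBRA family activator of LATS, was at 7.09, 7.51 and 7.65 FPKM in WT and at 13.8, 14.6 and 13.5 in DKO (0.95, SE 0.10), and its relative WWC2 was at 39.2, 36.7 and 38.1 against 13.8, 14.5 and 8.4 FPKM (-1.61, SE 0.19). These relatives changed in opposite directions. NF2, the gene of the upstream scaffold merlin, was higher (0.71, SE 0.10), and STK38, an NDR kinase gene, was lower (-1.01, SE 0.16). Without DKO3 the values were 0.95 for WWC3, -1.42 for WWC2, 0.66 for NF2 and -0.85 for STK38. MAP4K4, a kinase that can act beside the MST kinases on LATS, was not called (0.19, SE 0.08), nor was the LATS cofactor gene MOB1A (-0.60, SE 0.32), which was at 40.4, 40.6 and 15.3 FPKM in DKO and 44.9 to 52.8 in WT. MAP4K4 was called higher (0.16) and MOB1A lower (-0.28) without DKO3.

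Of 20 tested genes of the STRIPAK phosphatase complex and the LIM-domain inhibitors of LATS, which both restrain the cassette, 2 were higher, 6 lower and 12 not called, with a median of -0.26. The count was 3, all lower, without any 1 WT library, 4 without DKO1, 5 without DKO2 and 14 without DKO3 (5 higher and 9 lower). The share called was 40%, below the 45.5% of all tested genes (74.6% without DKO3). STK26, which encodes the STRIPAK kinase MST4, was at 10.5, 10.9 and 12.3 FPKM in WT and had 0 counts in all DKO libraries, at least 238-fold lower against a floor of 3 counts per library. STRIP2 was lower (-0.83, SE 0.16, and -0.83 without DKO3), and PPP2CA, the gene of a catalytic subunit of the phosphatase PP2A, was higher (0.65, SE 0.18, edgeR adjusted p = 0.025, and 0.84 without DKO3) at 179, 174 and 103 FPKM in DKO against 93.9 to 102 in WT. The PPP2CA call was not made without any 1 WT library, without DKO1, without DKO2 or in the 3 limma fits on FPKM, with adjusted p over all alternatives from 8.3e-23 to 0.097. MOB4 (0.10, SE 0.09) and the second catalytic subunit gene PPP2CB (-0.05, SE 0.14) were not called.

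Of 13 tested genes of cell polarity and the FAT cadherins, which feed into the pathway at cell junctions, 2 were higher, 4 lower and 7 not called, with a median of -0.15 (3 higher and 9 lower without DKO3). The share called, 46.2%, was close to the 45.5% of all tested genes, and without DKO3 12 of 13 were called against 74.6%. CRB3, which encodes the apical determinant crumbs 3, was at 6.24, 5.49 and 5.12 FPKM in WT and at 0.73, 0.66 and 0.82 in DKO (-2.86, SE 0.18). LLGL2 (-2.02, SE 0.18), a basolateral determinant, and PATJ (-1.43, SE 0.15), a partner of the crumbs complex, were also lower, and the atypical cadherin gene FAT1 was higher (0.45, SE 0.08). Without DKO3 the values were -2.99 for CRB3, -2.17 for LLGL2, -1.39 for PATJ and 0.42 for FAT1. PRKCI, the gene of an atypical protein kinase C, and LLGL1 were not called. PRKCI was called higher (0.34) and LLGL1 lower (-0.37) without DKO3.

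Of 22 tested genes whose proteins bind YAP, TAZ or TEAD, 5 were higher, 6 lower and 11 not called, with a median of 0.06 (9 higher and 9 lower without DKO3). The share called, 50%, was near the 45.5% of all tested genes, and without DKO3 18 of 22 were called against 74.6%. The number called was 6 to 7 without any 1 WT library. AMOT and AMOTL1, the paralogs of AMOTL2, moved in opposite directions: AMOT was at 4.58, 5.04 and 4.65 FPKM in WT and at 1.52, 1.41 and 1.35 in DKO (-1.69, SE 0.12), and AMOTL1 was at 6.24, 6.8 and 6.16 against 14, 13.6 and 16.2 FPKM (1.23, SE 0.14). AMOTL2, at 149 FPKM in WT, was the most abundant of the angiomotin genes in both groups and lay between them in fold change. CTNNA1, which encodes alpha-catenin, was higher at 201, 207 and 209 FPKM against 107, 103 and 105 (1.03, SE 0.08). Without DKO3 the values were -1.68 for AMOT, 1.11 for AMOTL1 and 0.98 for CTNNA1. The 14-3-3 genes YWHAQ (-0.60, SE 0.21) and YWHAE (0.24, SE 0.11), whose proteins hold phosphorylated YAP in the cytoplasm, were not called. YWHAQ was called lower without DKO3, with limma-voom, with DESeq2 and with upper quartile scaling, and its adjusted p over all alternatives ranged from 2.2e-12 to 0.13. YWHAE was called higher without DKO3 (0.34).

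**Figure D5:**
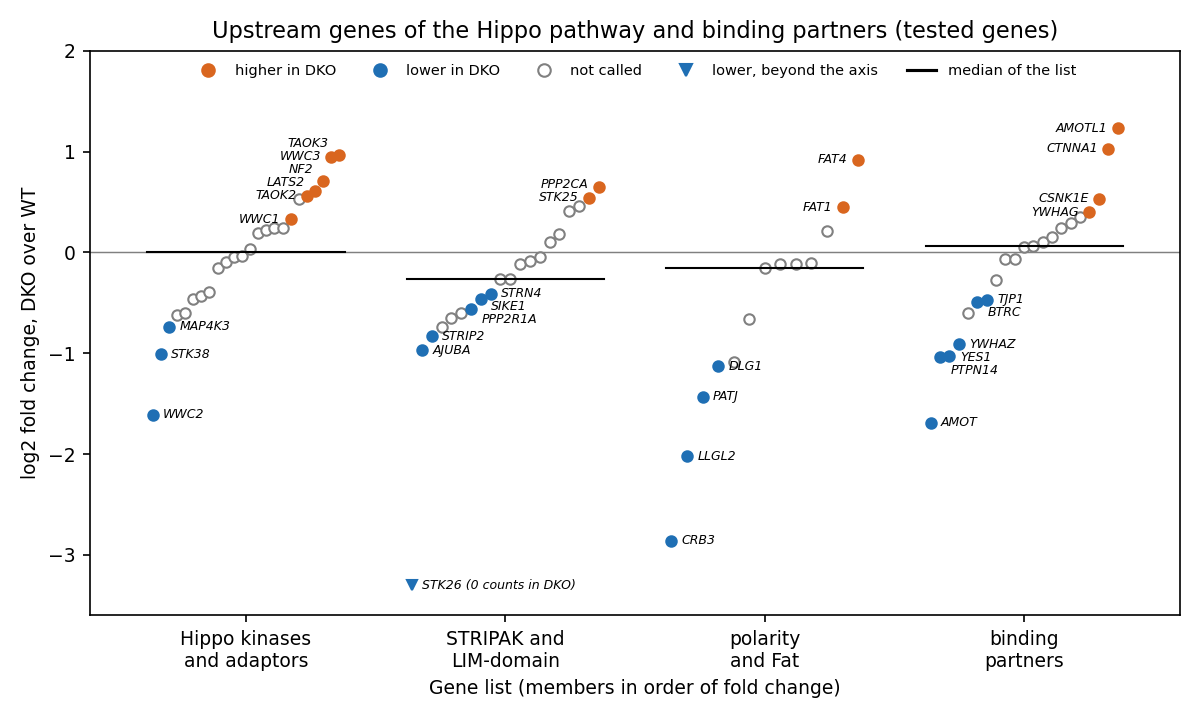
Log2 fold change (DKO over WT) of the tested genes of the 4 upstream and partner lists (1 binding partner is not shown), each list in order of fold change, with the list's median as a black line. Called genes are named in orange (higher) or blue (lower), every list holds both, and STK26, with 0 counts in DKO, is placed beyond the axis as a triangle.

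CCN1 and CCN2 are also known to respond to serum response factor (SRF) and its actin-regulated partners, the MRTFs. Of 16 tested genes of that list, 4 were higher, 5 lower and 7 not called, with a median of 0.01 (7 higher and 8 lower without DKO3). The share called was 56.2% against 45.5% of all tested genes, and without DKO3 15 of 16 were called against 74.6%. SRF (-0.22, SE 0.12) and MRTFA (0.13, SE 0.18) were not called and MRTFB was lower (-0.61, SE 0.13). MYL9, a myosin light chain gene, had 0 counts in WT and was at 73.5, 76.1 and 113 FPKM in DKO1 to DKO3, which is at least 484-fold higher. CNN1, the calponin 1 gene, was higher too (2.44, SE 0.30), and VCL (-0.92, SE 0.09) and FLNA (-1.21, SE 0.16), which encode vinculin and filamin A, were lower. Without DKO3 the values were -0.50 for MRTFB, 2.37 for CNN1, -0.86 for VCL and -1.43 for FLNA, and SRF was called lower (-0.34). ACTB (0.03, SE 0.08), at 2730 to 2810 FPKM in WT and 2330 to 2970 in DKO, and TPM4 (0.08, SE 0.16) were not called. Both were called higher without DKO3 (0.09 and 0.24).

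For each target, the genes of most similar profile were found among 8381 genes of at least 5 FPKM, by the root mean square difference of log2 CPM (counts scaled to library size) centred over the 6 samples. CCN2 was nearest to ODC1, which encodes ornithine decarboxylase and was at 190, 191 and 204 FPKM in WT and 708, 702 and 580 in DKO (difference 0.052), and to TRERF1 (0.058). ANKRD1 had no neighbour as close: the nearest were EGFR (0.186), at 11.6, 11.5 and 10.8 against 116, 122 and 114 FPKM, and DCUN1D5 (0.201), the gene 12 places from YAP1. CCN1 was nearest to ILF2 (0.018) and RPL14 (0.024), and AMOTL2 to CASC3 (0.018) and CAMK2G (0.018), all of which were not called. With 6 samples in 2 groups, this likeness mostly reflects the size of the difference between the groups and the place of DKO3.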

How the data were processed

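RNA libraries made with an mRNA kit of 3 WT and 3 DKO samples of COS7 were analysed. The authors deposited 1 table of 18050 genes with estimated counts and FPKM per sample, per the file headers. The submitters' processing notes name HISAT and Bowtie2. Their versions, the read counter, the use of strand and the build were not given in the sources used here. Of the columns in this table, 9 hold 3 other samples and were left out. Estimated counts were rounded, genes were filtered (edgeR filterByExpr, minimum count 10, leaving 13094), scaled by TMM and tested by edgeR 4.0.16 (R 4.3.3) quasi-likelihood F-tests with Benjamini-Hochberg adjustment over all tested genes. SE is the log2 fold change divided by the square root of F. limma 3.58.1 and DESeq2 1.42.0 served as alternatives, limma-voom also for intervals, and exact permutation tests (scipy 1.17.1) for ratios of FPKM. Implied length is estimated count over FPKM and library total. The test was checked on simulated counts of 13094 genes, with 100 changed 1.5-fold, 50 changed 2-fold and 50 changed 4-fold. There 4.9% of edgeR calls, 1.3% of limma-voom calls and 26.2% of DESeq2 calls were false. Far fewer genes were changed in the simulation than were called in the real comparison, so these shares need not hold there. Counting intervals cover counting error only (95%). Gene order and names were taken from RefSeq (assembly mChlSab1.0.hap1), to which 92.7% of the gene IDs matched. The members and gene lists were chosen with earlier results of these data known. Named genes were, per list, up to 4 called genes of smallest adjusted p and up to 2 uncalled genes of highest level, plus the 2 most similar genes per target; LATS2, AMOTL1, STK3, STK4, SAV1, LATS1, SRF, MRTFA, MRTFB, the untested CCN and ankyrin genes and the neighbours of YAP1 were added after their values were seen. Near-identical copies and overlapping genes could not be separated from the table. The values of 1 binding partner gene are not reported here.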

Additional observations from a re-analysis of the deposited data

How the results depend on the processing

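YAP1, WWTR1, CCN2 and ANKRD1 kept their direction and their call under all 16 alternatives, with log2 fold changes of 2.98 to 3.22, -1.19 to -0.82, 1.72 to 1.79 and 3.47 to 3.69. Leaving out 1 library at a time gave 4266 to 9880 genes called and 4 to 10 of the 10 members, 6 to 19 of the Hippo kinase list, 3 to 14 of the STRIPAK list, 5 to 12 of the polarity list, 6 to 18 of the binding partners, 13 to 17 and 8 to 15 of the 2 target lists, 7 to 15 of the SRF list and 1 to 2 of the CCN and ankyrin list; the highest count came without DKO3 in each list except the last. Same-numbered samples did not deviate together (r = 0.02, -0.28 and -0.29), so the numbers were not taken as pairs. A fit with the replicate number as a block called 4485 genes in place of 5959, TEAD4 (0.64, edgeR adjusted p = 0.066) and PPP2CA (0.62, 0.051) were not called, and the STRIPAK list had 3 and the binding partners 7 genes called in place of 8 and 11. The CCN and ankyrin list had 2 genes called with no filter and with limma on log2(FPKM + 1) or log2(FPKM + 0.1), and 3 with limma and no filter, in place of 1. The TEAD sum differed by 0.08 (log2) on a TPM scale, and with CPM in place of FPKM the shares differed by -1.65 (TEAD2), -0.96 (TEAD3) and 5.10 (TEAD4) percentage points. Among the genes named in the text, STK3 turned sign and was called: it was not called at -0.04, and without 1 library it ranged from -0.27 to 0.22, the last without DKO3 and called higher. The other signs that turned were of genes not called in either fit: without 1 library MRTFA ranged from -0.09 to 0.23, TEAD1 ranged from -0.03 to 0.23, TEAD3 from -0.20 to 0.09, AMOTL2 from -0.10 to 0.01, PPP2CB from -0.14 to 0.08, BCL2L1 from -0.11 to 0.04, GADD45A from -0.03 to 0.07, ACTB from -0.01 to 0.09 and TPM4 from -0.04 to 0.24. GADD45A was -0.01 with no filter, -0.00 with DESeq2 and its size factors, -0.02 with library totals and -0.03 in the limma fits on FPKM, and ACTB was -0.00 with no filter and with library totals and -0.02 in the limma fits on FPKM. Why calls changed on leaving out 1 library was not tested. The members had at least 445 counts in each library, and the effect of depth was not tested.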
